A study of Drosophila melanogaster with 30 samples.

Results

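The aminoacyl-tRNA synthetase genes of Drosophila melanogaster were followed in RNA from adult fly heads. They were found by their FlyBase symbols, which consist of an amino acid abbreviation followed by RS, with the ending -m for the mitochondrial enzymes. This rule gave 35 of the 17704 genes listed in every library, 20 cytosolic and 15 mitochondrial, and all 35 passed the low-count filter in both experiments. Bchs, or Blue cheese, is the WDFY3 homolog of flies, a large BEACH-domain protein linked to selective autophagy. The study set heads that overexpress it in glia or in neurons against controls. The 6 groups of 5 libraries came from flies 22 to 31 h after eclosion. Glial overexpression (repo-Gal4/UAS-bchs::HA) had a repo-Gal4/+ control and a UAS-bchs::HA/+ control. Neuronal overexpression (nSyb-Gal4/UAS-bchs::HA) had an nSyb-Gal4/+ control and a UAS-bchs::HA/+ control of its own. The repo driver is active in glia and the nSyb driver in neurons, but RNA was taken from whole heads, so a value is a sum over driver-positive and all other cells. The labels do not say whether replicates came from separate crosses, so the p-values measure the spread between these libraries.

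Aminoacyl-tRNA synthetases attach each amino acid to its tRNA and thereby supply the ribosome with charged tRNA. Cytosolic enzymes serve translation of nuclear-encoded messages. The label cytosolic is used here for every symbol without -m, although a few of these genes are known to serve both compartments. For 5 of them, GlnRS, GlyRS, HisRS, LysRS and ThrRS, the rule found no -m gene for the same amino acid. The mitochondrial enzymes are encoded in the nucleus, imported, and charge the tRNAs used to translate the few proteins encoded by mitochondrial DNA. The enzymes fall into classes I and II by the fold of their catalytic domain. In animal cells, a subset of the cytosolic enzymes is held with scaffold proteins in a multi-synthetase complex. Brain and nerve are among the tissues known for disease from inherited synthetase defects.

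Depth was 28685786 to 84208964 counts in genes per glial-experiment library and 44017794 to 60266009 per neuronal-experiment library. The overexpressed gene had 1127 to 1254 CPM (counts scaled to library size and TMM factor) in glial overexpression, against 34.8 to 194.4 CPM in repo-Gal4 controls and 17.0 to 210.4 CPM in the UAS control. It had 304.5 to 577.4 CPM in neuronal overexpression, against 82.9 to 127.8 CPM in nSyb-Gal4 controls and 81.4 to 103.7 CPM in the UAS control. The transgene and the endogenous gene are not separated in these counts. Markers of heads were present in every library, with 6 photoreceptor genes summing to between 32780 and 65840 CPM. A pair of control libraries in the glial experiment, UAS control 2 and repo-Gal4 control 3, stood apart in their content of genes with long exons. Log2 CPM, taken relative to each gene's median over the libraries of its experiment, changed by -0.93 and -0.63 per doubling of exon length. The other 28 libraries lay between -0.24 and 0.08. The low end of that range was glial overexpression 5, 3 and 2, at -0.24, -0.21 and -0.11, and the other 8 glial controls lay between -0.04 and 0.06. The glial comparisons are therefore given with and without the pair that stood apart, and the length slope of the overexpression libraries is given beside them. Glial heads were homogenised in Trizol before column purification and neuronal-experiment heads in the column kit's buffer, so extraction and driver cannot be told apart across experiments.

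The synthetase genes spanned a wide range of levels. By CPM per kilobase of exon, averaged over the 6 groups, the cytosolic TyrRS was highest, with 45.4 and group means between 37.3 and 60.0. The 60.0 was the glial UAS control, carried by its library 2. Without UAS control 2 and repo-Gal4 control 3, TyrRS averaged 40.2, with group means between 32.9 and 50.5, and TyrRS, ThrRS and PheRS-m were still the 3 highest. ThrRS followed with 33.5 CPM per kilobase. Among cytosolic genes LeuRS (9.995) and MetRS (7.88) were lowest. The mitochondrial genes were lower as a group, but PheRS-m, at 29.1 CPM per kilobase, ranked 3 of 35, and TrpRS-m had 12.2. MetRS-m (1.95) and GluRS-m (1.81) were the lowest of all. Members were also ranked among the genes that passed the low-count filter and had a length, 10699 in the neuronal experiment and 11106 in the glial one. Cytosolic members lay at a median percentile of 62.9 in the neuronal experiment (42.8 to 85.5) and 63.0 in the glial one (44.4 to 86.9). Mitochondrial members lay at a median percentile of 38.3 (19.4 to 77.8) in the neuronal experiment and 39.0 (23.0 to 79.5) in the glial one. The order of neighbours in this ranking was not fixed: the group means of AsnRS, LysRS and AspRS, at 25.5, 25.5 and 24.9 CPM per kilobase, overlapped across groups. GluRS-m and TyrRS, from opposite ends of the ranking, are neighbours on the minus strand of chromosome 3L, with 171 bases between them.

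**Figure D1:**
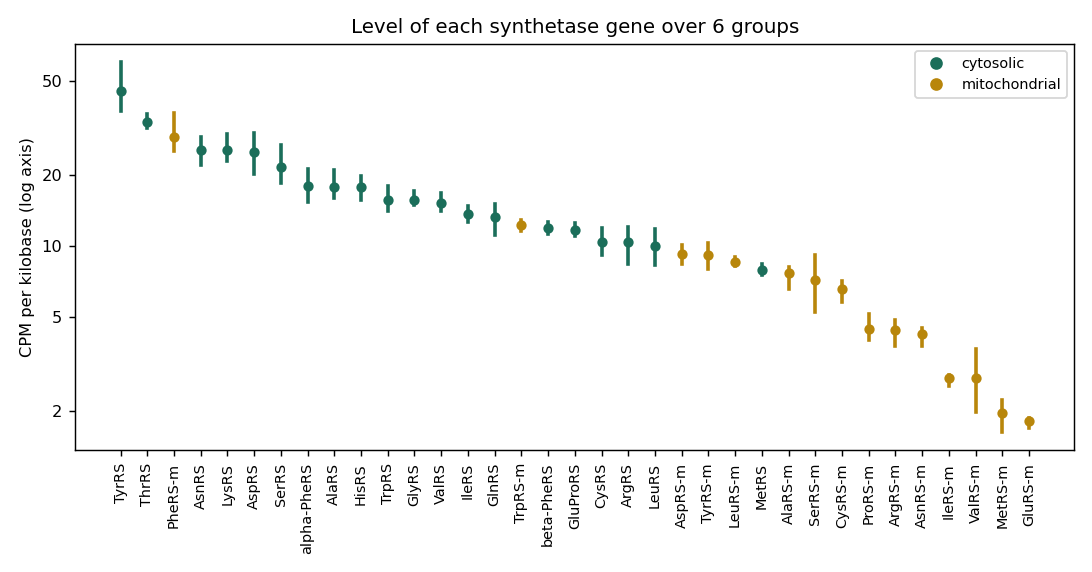
Level of each synthetase gene in CPM per kilobase of exon (log axis). Points are means over the 6 groups and bars run from the lowest to the highest group mean. TyrRS (45.4) and ThrRS (33.5) lead, and among mitochondrial genes PheRS-m (29.1) stands above the others.

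In neuronal overexpression, 6 of the 35 genes changed in the same direction against both controls (edgeR quasi-likelihood test, Benjamini-Hochberg adjusted p under 0.05 over 10778 genes), where 10.2% of all genes tested did so. The cytosolic AspRS, TrpRS, SerRS and AlaRS rose, where 4.74% of all genes did, and the mitochondrial SerRS-m and ValRS-m fell, where 5.43% did. All 6 changes were below 1 log2 unit, and the largest was that of SerRS-m against the UAS control. The members called are thus split by compartment, 4 cytosolic genes up and 2 mitochondrial genes down, a division whose difference was not tested. In a single fit of the 30 libraries of both experiments, edgeR called 0 members against both neuronal controls, where 1.56% of all genes were called. Without UAS control 2 and repo-Gal4 control 3 of the glial experiment, a choice made after seeing the data, that fit called 5 members, where 8.3% of all genes were called.

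SerRS-m charges mitochondrial tRNA with serine. The gene lies on chromosome 3R (15340667-15343218, plus strand, Ensembl annotation of BDGP6.54), and 13.9% of its exon length overlaps Nagk on the other strand. Its levels were 13.5, 11.9, 13.6, 13.6 and 14.51 CPM in neuronal overexpression, against 17.2, 17.5, 16.1, 18.1 and 19.1 CPM in nSyb-Gal4 controls and 20.1, 20.3, 20.1, 20.6 and 20.04 CPM in the UAS control. Every overexpression library lay below all 10 control libraries, as it did for 4% of all genes tested. Relative to nSyb-Gal4 this was a change of -0.39 log2 units (SE 0.054, adjusted p = 0.000106 by edgeR) and -0.59 against the UAS control (SE 0.054, edgeR adjusted p = 5.1e-07).

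ValRS-m, the mitochondrial valine enzyme, was a gene of low level (chromosome 3L, 8961274-8964769, minus strand, no overlapping exon). It had 6.21, 7.52, 6.56, 6.23 and 5.62 CPM in neuronal overexpression, against 8.20, 7.93, 7.85, 8.26 and 9.54 CPM in nSyb-Gal4 controls and 8.42, 8.24, 7.77, 9.42 and 7.99 CPM in the UAS control. Here too the overexpression libraries lay below all 10 controls. The log2 fold change was -0.38 against each control (SE 0.080 for both, edgeR adjusted p = 0.00336 against nSyb-Gal4 and 0.0016 against UAS).

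The cytosolic serine enzyme moved the other way. SerRS (chromosome 2L, 3035493-3037403, minus strand, 2.2% of exon length shared with CG17260) had 49.8, 54.6, 47.7, 52.0 and 51.3 CPM in neuronal overexpression, against 36.3, 35.8, 37.4, 40.2 and 45.7 CPM in nSyb-Gal4 controls and 49.5, 41.3, 44.5, 44.8 and 39.8 CPM in the UAS control. The overexpression libraries lay above every nSyb-Gal4 library, while UAS control 1 lay above the lowest of them. Relative to nSyb-Gal4 this was a change of 0.39 log2 units (SE 0.070, adjusted p = 0.00105 by edgeR) and 0.22 (SE 0.070, edgeR adjusted p = 0.022) against UAS. Without neuronal overexpression 2, the second of these had an adjusted p of 0.05 and was not called.

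AspRS charges tRNA with aspartate and belongs to the multi-synthetase complex of mammals. It had 67.4, 72.8, 60.05, 70.7 and 69.1 CPM in neuronal overexpression, against 51.2, 55.2, 52.6, 55.7 and 55.9 CPM in nSyb-Gal4 controls and 62.0, 57.4, 60.0, 60.4 and 57.8 CPM in the UAS control. Only neuronal overexpression 3 lay within the range of the UAS control. The change came to 0.33 log2 units against nSyb-Gal4 (SE 0.050, adjusted p = 0.000237 by edgeR) and 0.19 (SE 0.050, edgeR adjusted p = 0.00683) against UAS. The exons of this gene (chromosome 2R, 12877004-12883168, plus strand) overlap those of Nmda1 and 2 antisense RNAs. Summed gene by gene, the overlap came to 76.3% of its exon length, and bases shared with several of these genes were counted each time. The antisense RNA asRNA:CR43468 lies on the same strand as AspRS. The counts of AspRS are therefore uncertain whether or not strand was used.

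TrpRS, the tryptophan enzyme, lies on chromosome 3R (9265027-9266904, minus strand) with no overlapping exon. It had 29.4, 30.02, 27.0, 34.3 and 31.0 CPM in neuronal overexpression, against 24.3, 23.9, 25.7, 22.4 and 24.3 CPM in nSyb-Gal4 controls and 27.4, 26.7, 24.9, 25.4 and 26.9 CPM in the UAS control. Again 1 overexpression library, replicate 3, lay within the range of the UAS control. In log2 units it was 0.33 against nSyb-Gal4 (SE 0.057, adjusted p = 0.000724 by edgeR) and 0.21 (SE 0.057, edgeR adjusted p = 0.00911) against UAS.

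AlaRS, the alanine enzyme (chromosome 2L, 8378262-8381764, minus strand, no overlapping exon), was the least firm of the 6. It had 71.5, 69.9, 61.6, 69.4 and 72.8 CPM in neuronal overexpression, against 49.9, 57.3, 57.2, 58.4 and 60.9 CPM in nSyb-Gal4 controls and 68.3, 64.7, 57.6, 59.2 and 54.9 CPM in the UAS control. Relative to nSyb-Gal4 this was a change of 0.28 log2 units (SE 0.067, adjusted p = 0.00706 by edgeR) and 0.18 (SE 0.066, edgeR adjusted p = 0.0412) against UAS. All overexpression libraries exceeded all nSyb-Gal4 libraries, while UAS controls 1 and 2 reached into their range. Against UAS it was not called in 7 of 15 leave-one-out fits, with edgeR adjusted p up to 0.089: without neuronal overexpression 1, 2, 4 or 5, or without UAS control 3, 4 or 5.

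**Figure D2:**
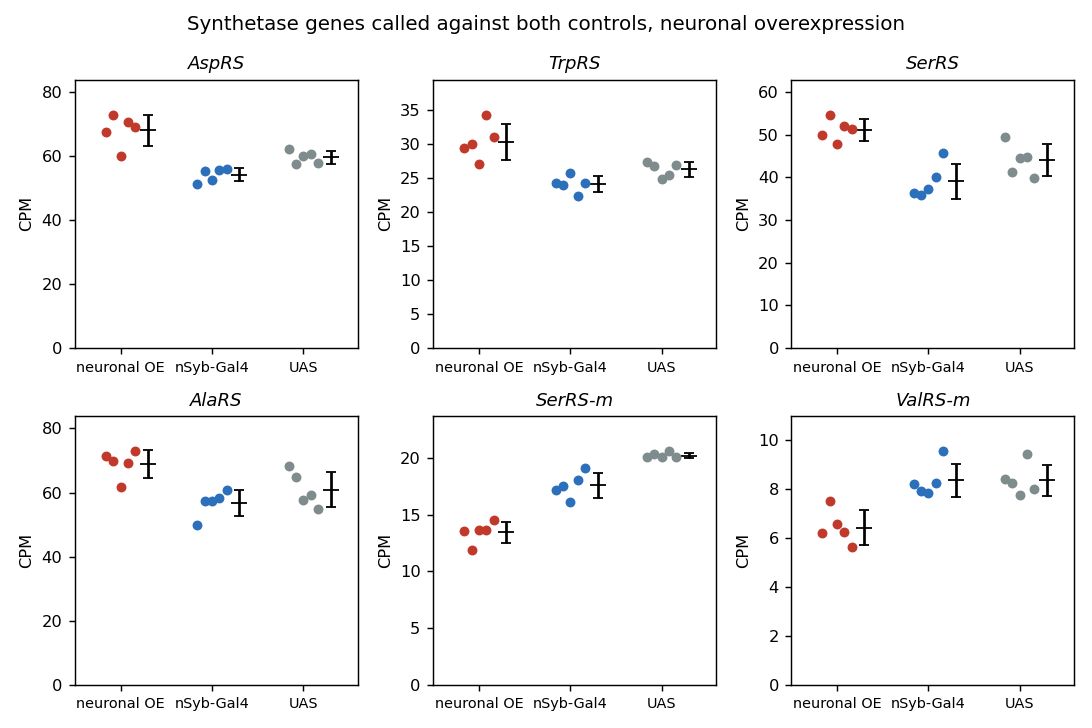
CPM of the 6 synthetase genes called against both controls, in each library of the neuronal experiment (OE, overexpression). Points are libraries, horizontal ticks with bars are means ± SD of 5. SerRS-m and ValRS-m lie below all 10 controls in overexpression, while the cytosolic genes lie above the nSyb-Gal4 libraries and touch the range of the UAS libraries.

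Against each control taken alone, 11 of the 35 genes were called, but the genes and directions differed. Against nSyb-Gal4, where 16.5% of all genes were called, 9 rose and 2 fell (8.19% and 8.34% of all genes). The 9 comprised 8 of 20 cytosolic genes and MetRS-m, and no cytosolic gene fell. Against UAS, where 38.6% of all genes were called, 4 rose and 7 fell (18.3% and 20.2% of all genes), with 4 cytosolic genes in each direction and 3 mitochondrial genes lower. The share of members called against UAS was therefore not above that of all genes. The median log2 fold change of the cytosolic members was 0.15 against nSyb-Gal4 and -0.03 against UAS, beside 0.00 and -0.01 over all genes. That of the mitochondrial members was -0.07 against nSyb-Gal4 and -0.06 against UAS. Both comparisons share the overexpression libraries. The count against nSyb-Gal4 was 7 without nSyb-Gal4 control 1, without neuronal overexpression 2 or without neuronal overexpression 5.

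Beyond the genes called against both controls, ArgRS, GluProRS, IleRS, LeuRS and MetRS-m rose against nSyb-Gal4, with log2 fold changes between 0.16 and 0.26. ArgRS, IleRS, LeuRS and the bifunctional GluProRS, which charges tRNA with glutamate and with proline, belong to the complex in mammals. Of the 8 cytosolic genes counted to that complex, 5 rose against nSyb-Gal4, as did 3 of the other 12, beside 8.19% of all genes. Of the 5, 2 were still called without nSyb-Gal4 control 1, neuronal overexpression 2 or neuronal overexpression 5, with a replicate block, or with no low-count filter, and 3 without nSyb-Gal4 control 2, neuronal overexpression 1 or neuronal overexpression 4. Against UAS, TyrRS, LysRS, LeuRS, ThrRS and ArgRS-m fell, with log2 fold changes between -0.34 and -0.17. Of the 8 complex genes, 1 rose and 2 fell against UAS, and of the other 12 cytosolic genes 3 rose and 2 fell. The shares of all genes against UAS were 18.3% higher and 20.2% lower. In the nSyb-Gal4 control against the UAS control, 4 of the 8 and 4 of the other 12 were lower, beside 13.8% of all genes. By structural class, 5 of 18 class I genes rose against nSyb-Gal4 and 1 fell, and 3 of 16 class II genes rose and 1 fell, beside 8.19% of all genes higher and 8.34% lower. Of the 5 class I genes, 2 were still called without nSyb-Gal4 control 1 or 2 or neuronal overexpression 2, 4 or 5 and with no low-count filter, and 3 without neuronal overexpression 1 and with a replicate block. GluProRS, with a catalytic domain of each class, was counted in neither. Against UAS, 1 of 18 class I genes rose and 4 fell, and 3 of 16 class II genes rose and 3 fell. Beside these counts, 18.3% of all genes rose and 20.2% fell against UAS.

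LeuRS, the leucine enzyme, was called in opposite directions. It had 40.4, 40.1, 34.4, 41.8 and 40.1 CPM in neuronal overexpression, against 29.3, 33.2, 34.8, 33.3 and 33.4 CPM in nSyb-Gal4 controls and 48.8, 47.1, 49.1, 45.1 and 41.1 CPM in the UAS control. Overexpression lay between its controls, with a log2 fold change of 0.26 (SE 0.062, edgeR adjusted p = 0.007) against nSyb-Gal4 and -0.23 (SE 0.062, edgeR adjusted p = 0.00785) against UAS.

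TyrRS, the tyrosine enzyme and the member of highest level per kilobase, had 72.0, 71.0, 68.3, 72.6 and 69.4 CPM in neuronal overexpression, against 74.6, 74.9, 81.0, 75.6 and 88.7 CPM in nSyb-Gal4 controls and 97.2, 86.5, 91.0, 95.7 and 76.7 CPM in the UAS control. All 5 overexpression libraries lay below all 10 controls. The change came to -0.34 log2 units against UAS (SE 0.064, adjusted p = 0.000695 by edgeR) and -0.16 (SE 0.064, edgeR adjusted p = 0.102) against nSyb-Gal4, which did not pass. MetRS-m, the mitochondrial methionine enzyme, had 8.11, 8.86, 8.06, 8.06 and 8.38 CPM in neuronal overexpression, against 6.61, 7.01, 6.66, 7.27 and 7.61 CPM in nSyb-Gal4 controls and 7.58, 7.16, 6.25, 8.50 and 7.28 CPM in the UAS control. In log2 units it was 0.24 against nSyb-Gal4 (SE 0.072, adjusted p = 0.0332 by edgeR) and 0.17 (SE 0.072, edgeR adjusted p = 0.0687) against UAS. The call against nSyb-Gal4 was lost in 7 of 15 leave-one-out fits, with edgeR adjusted p up to 0.0769: without nSyb-Gal4 control 1, 2 or 3, or without neuronal overexpression 1, 2, 4 or 5.

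The other members at the ends of the ranking by level were not called against both controls. ThrRS had 94.6, 95.5, 89.7, 96.1 and 92.2 CPM in neuronal overexpression, against 89.1, 90.3, 94.9, 93.4 and 102.6 CPM in nSyb-Gal4 controls and 107.8, 100.9, 109.3, 109.7 and 97.2 CPM in UAS controls. It fell against UAS (log2 fold change -0.17, SE 0.050, edgeR adjusted p = 0.0157), where every overexpression library lay below every UAS library. MetRS had 24.7 to 27.8 CPM in neuronal overexpression, 24.3 to 28.2 CPM in nSyb-Gal4 controls and 26.4 to 30.9 CPM in UAS controls.

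Of the mitochondrial members, PheRS-m, the single-chain phenylalanine enzyme, had 39.2 to 44.6 CPM in neuronal overexpression, 40.4 to 51.8 CPM in nSyb-Gal4 controls and 42.2 to 48.7 CPM in UAS controls. TrpRS-m, the tryptophan enzyme, had 28.6 to 32.7 CPM in neuronal overexpression, 30.04 to 33.0 CPM in nSyb-Gal4 controls and 29.7 to 32.5 CPM in UAS controls. GluRS-m, the glutamate enzyme, had 2.66 to 3.04 CPM in neuronal overexpression, 2.71 to 3.49 CPM in nSyb-Gal4 controls and 2.88 to 3.25 CPM in UAS controls. The groups of these 3 genes overlapped, and their log2 fold changes lay between -0.15 and -0.01 with edgeR adjusted p of 0.0861 or more.

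**Figure D3:**
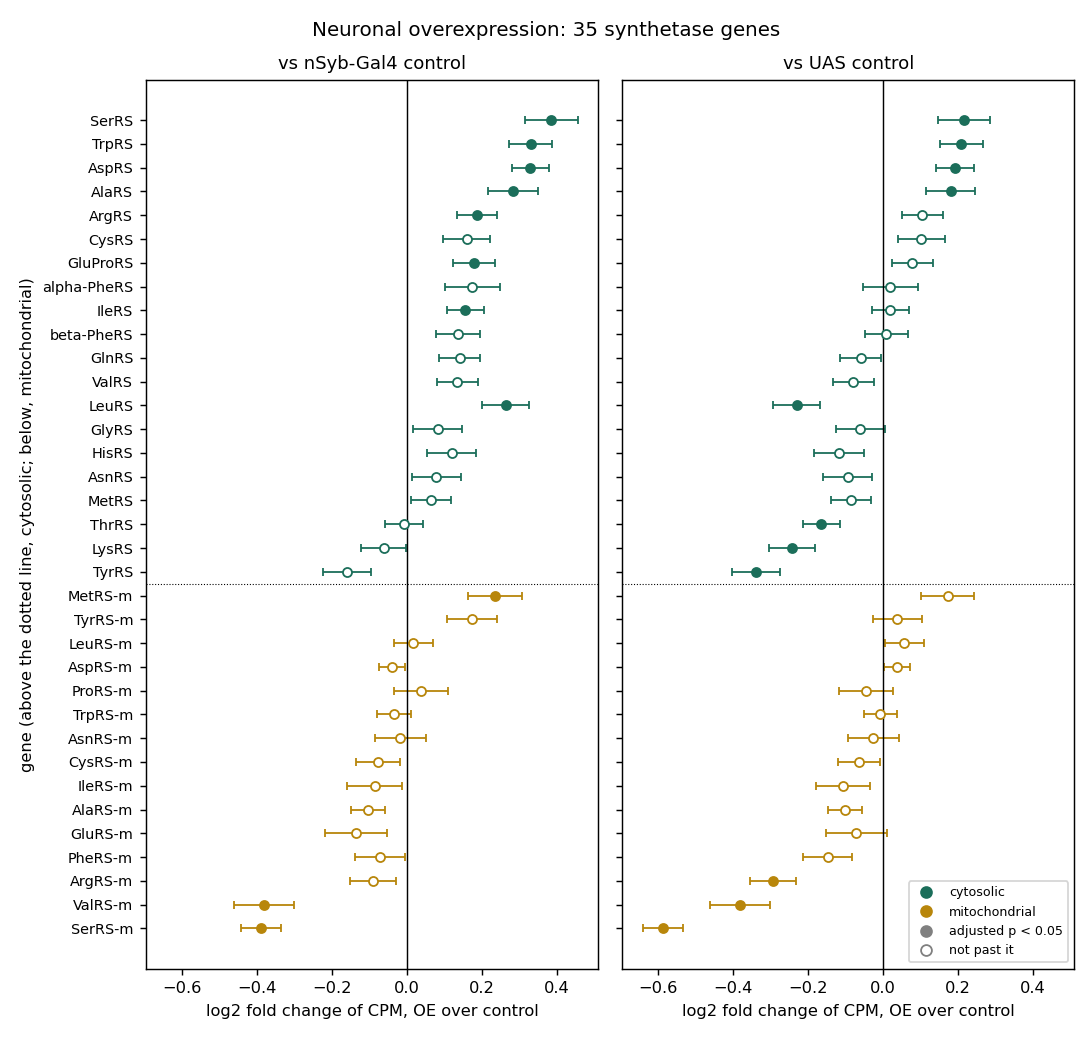
Log2 fold changes of the 35 synthetase genes in neuronal overexpression (OE) against the nSyb-Gal4 control (left) and the UAS control (right), with bars of 1 SE. Filled points passed an adjusted p of 0.05. Filled points are 9 higher and 2 lower on the left, and 4 higher and 7 lower on the right.

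The controls of the neuronal experiment also differed from each other at synthetase genes. In the nSyb-Gal4 control against the UAS control, 10 of the 35 genes were lower and none was higher in edgeR (8 lower and 1 higher in DESeq2), where 25.6% of all genes were called and 13.8% were lower. Of these 10, 8 were cytosolic and 2 mitochondrial. All 20 cytosolic members had a negative log2 fold change, with a median of -0.15, beside -0.01 over all genes, of which 5099 of 10778 were positive. The mitochondrial median was -0.01. The count of 10 was not stable: it was 16 without UAS control 5, 17 without nSyb-Gal4 control 5, and 3 to 6 without any 1 of UAS controls 1 to 4, nSyb-Gal4 controls 1 to 4, or neuronal overexpression 1 or 5.

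The balance between compartments was expressed per library as the mean log2 CPM of the 20 cytosolic genes minus that of the 15 mitochondrial genes, with 0.1 added to each CPM. It was 1.80 ± 0.06 in neuronal overexpression, against 1.59 ± 0.04 in nSyb-Gal4 controls and 1.72 ± 0.07 in the UAS control (SD, n = 5 each). Overexpression libraries ran between 1.72 and 1.88, above all nSyb-Gal4 libraries (1.53 to 1.62) and overlapping the UAS libraries (1.65 to 1.80). Summed levels of the cytosolic genes were 985.7 ± 40.3 CPM in neuronal overexpression, 900.7 ± 47.5 CPM in nSyb-Gal4 controls and 1013 ± 62.3 CPM in the UAS control. Those of the mitochondrial genes were 256.7 ± 6.78 CPM in neuronal overexpression, 267.3 ± 11.6 CPM in nSyb-Gal4 controls and 272.4 ± 9.09 CPM in UAS controls (SD, n = 5 each).

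**Figure D4:**
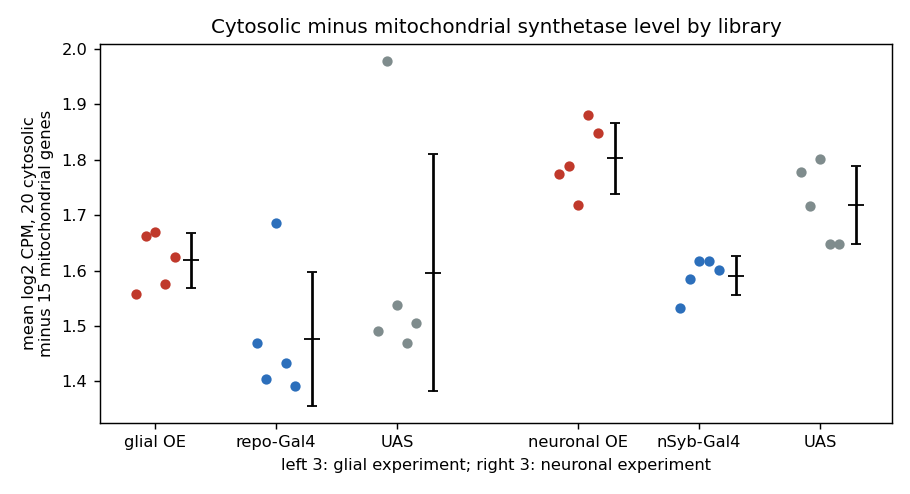
Mean log2 CPM of the 20 cytosolic minus the 15 mitochondrial synthetase genes in each library, by group, with mean ± SD of 5. The y axis does not start at 0. Neuronal overexpression lies between 1.72 and 1.88, above the nSyb-Gal4 libraries, and the highest point of all is UAS control 2 of the glial experiment.

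Genes for the same amino acid in both compartments formed 16 pairs, GluProRS and PheRS-m standing in 2 pairs each, and their ratios were taken from CPM per kilobase. The log2 ratio of SerRS to SerRS-m was 2.35 ± 0.16 in neuronal overexpression, against 1.57 ± 0.09 in nSyb-Gal4 controls and 1.54 ± 0.12 in the UAS control (SD, n = 5 each). In each overexpression library (2.23 to 2.61) it exceeded all 10 controls (1.41 to 1.72). Ratios of ArgRS to ArgRS-m and of IleRS to IleRS-m also lay above all 10 controls, by 0.28 and 0.24 against nSyb-Gal4 and by 0.40 and 0.13 against UAS in their means. That of TyrRS to TyrRS-m lay below all 10, by -0.33 and -0.37. In the neuronal experiment, single genes lay on one side of all 10 controls in 6.88% of those tested. In glial overexpression, the ratio of SerRS to SerRS-m was 1.63 ± 0.16 (1.43 to 1.85), against 1.22 ± 0.12 (1.07 to 1.40) in repo-Gal4 controls and 1.26 ± 0.16 (1.07 to 1.44) in the UAS control (SD, n = 5 each), so that its lowest library lay below the highest UAS library and the others above all 10 controls. The AlaRS to AlaRS-m ratio was the 1 glial ratio above all 10 controls, at 1.36 ± 0.12 in overexpression, 1.05 ± 0.07 in repo-Gal4 controls and 1.08 ± 0.13 in the UAS control (SD, n = 5 each). Without UAS control 2 and repo-Gal4 control 3, both ratios lay above all 8 remaining controls: beside the overexpression means just given, SerRS to SerRS-m averaged 1.17 ± 0.08 in repo-Gal4 controls and 1.22 ± 0.15 in UAS controls, and AlaRS to AlaRS-m averaged 1.03 ± 0.07 in repo-Gal4 controls and 1.13 ± 0.09 in UAS controls (SD, n = 4 each). In the glial experiment, 1.41% of single genes lay on one side of all 10 controls. Without the 2 control libraries, 5.54% lay on one side of all 8. No such share was taken over ratios of other gene pairs. The ratios of the 16 pairs are descriptions and were not tested.

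In glial overexpression, none of the 35 genes passed edgeR's test against either control, where 0.484% of 11149 genes were called against repo-Gal4, 1.13% against UAS and 0.161% against both. At an unadjusted p under 0.05 there was 1 member against repo-Gal4, ValRS-m (4.33% of all genes), and 1 against UAS, SerRS-m (8.09%). Both had lower levels in overexpression. Without UAS control 2 and repo-Gal4 control 3, an unadjusted p under 0.05 was reached by 16 members against repo-Gal4, 14 of them higher (28.7% of all genes), and by 7 against UAS, 6 of them higher (37.9%). With all libraries, DESeq2 called 0 members against each control, and it was not run without UAS control 2 and repo-Gal4 control 3. The repo-Gal4 control against the UAS control gave 0 calls with DESeq2 and 0 with edgeR, also at an unadjusted p under 0.05, where edgeR called 0.888% and 5.74% of all genes.

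SerRS-m had 12.7, 15.8, 19.8, 13.2 and 15.5 CPM in glial overexpression, against 18.2, 19.2, 28.5, 18.1 and 18.6 CPM in repo-Gal4 controls and 19.0, 42.3, 19.7, 17.2 and 18.2 CPM in the UAS control. By the smaller of its changes against the 2 controls it had the most negative log2 fold change of any member, without passing the test. Glial overexpression 3 lay within the controls, and the other 4 libraries lay below all of them. Relative to repo-Gal4 this was a change of -0.42 log2 units (SE 0.247, adjusted p = 1 by edgeR) and -0.60 (SE 0.247, edgeR adjusted p = 0.478) against UAS. Without the 2 libraries of low length slope it was -0.26 (SE 0.105, edgeR adjusted p = 0.138) and -0.26 (SE 0.104, edgeR adjusted p = 0.0991).

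IleRS, the isoleucine enzyme, had the most positive change of any member by the same measure. It had 52.1, 60.4, 62.1, 56.3 and 56.0 CPM in glial overexpression, against 52.6, 49.3, 47.5, 52.2 and 50.4 CPM in repo-Gal4 controls and 55.9, 23.0, 57.8, 55.3 and 54.9 CPM in the UAS control. The change came to 0.19 log2 units against repo-Gal4 (SE 0.201, adjusted p = 1 by edgeR) and 0.22 (SE 0.201, edgeR adjusted p = 0.829) against UAS. The low value of UAS control 2 set most of the second: without the 2 libraries it was 0.05 (SE 0.052, edgeR adjusted p = 0.519).

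UAS control 2 and repo-Gal4 control 3 differed from the rest at most synthetase genes. In UAS control 2, 16 of 20 cytosolic genes were above their median over the 15 libraries, at 0.418 to 4.34 times it with a median of 2.02. Its mitochondrial genes ran from 0.119 to 3.77 times, with a median of 1.27. In repo-Gal4 control 3, 18 of 20 cytosolic and 13 of 15 mitochondrial genes were above their median, with medians of 1.37 and 1.23 times. TyrRS had 274.8 CPM in UAS control 2, beside 61.5 to 66.7 CPM in the other UAS libraries. The highest ratios in UAS control 2 were those of TyrRS and PheRS-m, with 1771 and 1526 bases of exon, and the lowest those of IleRS and AspRS-m, with 3899 and 4422. Length did not order the members throughout: AsnRS-m, the shortest with 1482 bases, was at 0.661 times its median, and HisRS, with 2862 bases, at 3 times.

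**Figure D5:**
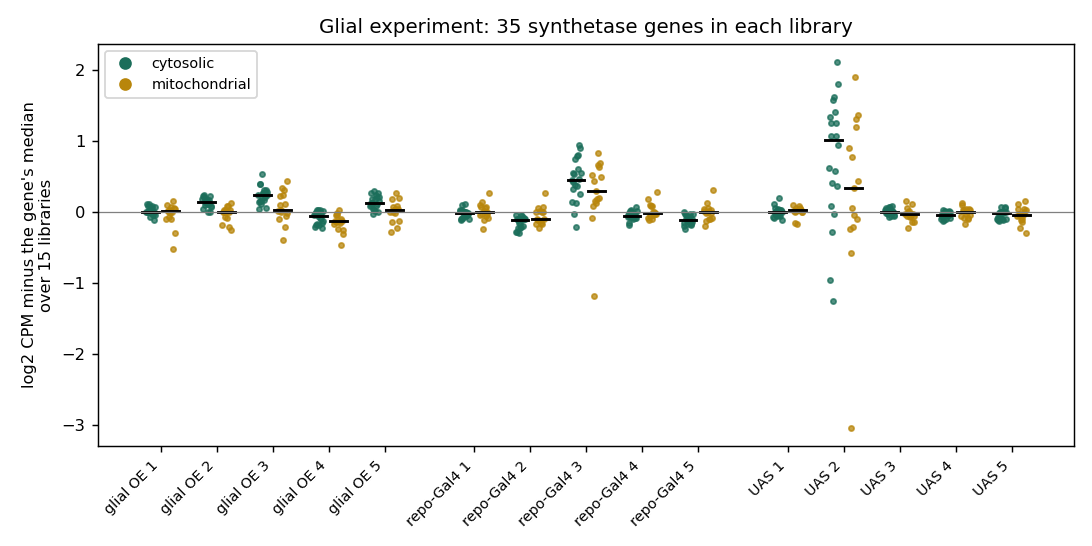
Log2 CPM of the 35 synthetase genes in each library of the glial experiment (OE, overexpression), relative to the gene's median over 15 libraries. Bars are medians of the 20 cytosolic and 15 mitochondrial genes. UAS control 2 and repo-Gal4 control 3 lie apart from the other 13 libraries.

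Without these 2 libraries, AspRS rose against both glial controls, 1 of 35 members, where 3.97% of 11129 genes were called and 2.97% rose. Its levels were 50.03, 55.8, 62.4, 47.2 and 56.9 CPM in glial overexpression, against 44.0, 38.9, 63.1, 42.2 and 40.0 CPM in repo-Gal4 controls and 49.1, 99.7, 47.0, 45.1 and 44.8 CPM in UAS controls, 63.1 and 99.7 being the values left out. The log2 fold change was then 0.40 (SE 0.075, edgeR adjusted p = 0.00638) against repo-Gal4 and 0.24 (SE 0.074, edgeR adjusted p = 0.0432) against UAS. With all libraries it was 0.26 (SE 0.229, edgeR adjusted p = 1) and -0.07 (SE 0.229, edgeR adjusted p = 0.947). The remaining groups still overlapped, since glial overexpression 4 lay below UAS control 1. Within overexpression, AspRS was highest in libraries 3, 5 and 2, those of lowest length slope. With the length slope as a covariate in all 15 libraries, AspRS rose against repo-Gal4 (log2 fold change 0.27, SE 0.052, edgeR adjusted p = 0.00462) but had 0.05 (SE 0.052, edgeR adjusted p = 0.517) against UAS. In the fit without the 2 libraries and with no covariate, ArgRS rose against UAS alone (log2 fold change 0.19, SE 0.054, edgeR adjusted p = 0.0306). There, 17.2% of all genes were called against UAS and 11.8% rose. Against repo-Gal4 in that same fit, where 6.35% were called and 4.55% rose, AspRS was the 1 member called.

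In the fit with that covariate, the members called against both glial controls were instead SerRS-m and AlaRS-m, the mitochondrial alanine enzyme, both lower, where 4.9% of all genes were called and 1.49% were lower. SerRS-m fell by 0.40 against repo-Gal4 and by 0.47 against UAS on the log2 scale (edgeR adjusted p = 0.00445 and 0.00075). AlaRS-m fell by 0.22 against repo-Gal4 and by 0.23 against UAS (edgeR adjusted p = 0.0381 and 0.0136).

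In the 13 libraries without UAS control 2 and repo-Gal4 control 3, all 20 cytosolic members had a positive log2 fold change against repo-Gal4 and 19 of 20 against UAS, with medians of 0.16 and 0.12. Over all 11129 genes, 6078 and 6030 were positive, with medians of 0.03 for both. The mitochondrial members had 9 and 8 of 15 positive, with medians of 0.03 and 0.04. With all 15 libraries, 14 and 5 of the 20 cytosolic members were positive, and with the length slope as a covariate 18 against repo-Gal4 and 8 against UAS, with medians of 0.05 and -0.02. Summed cytosolic levels were 973.6, 911 and 910.4 CPM in glial overexpression 3, 2 and 5, and 834.5 and 783.8 CPM in glial overexpression 1 and 4, against 746.5 to 815.2 CPM in the 4 remaining repo-Gal4 controls and 806.1 to 834.2 CPM in the 4 remaining UAS controls. Libraries 3, 2 and 5 are those of low length slope. The 5 neuronal marker genes were low in the same libraries: they summed to 1178, 1925 and 1344 CPM in glial overexpression 3, 2 and 5, and 3059 and 4518 CPM in glial overexpression 1 and 4, against 3041 to 5057 CPM in the 4 repo-Gal4 controls and 4640 to 4896 CPM in the 4 UAS controls. In the 2 libraries left out they summed to 405.6 CPM in repo-Gal4 control 3 and 321.1 CPM in UAS control 2. The neuronal genes did not move alike. With all 15 libraries, nSyb had log2 fold changes of -0.064 against repo-Gal4 and -0.105 against UAS. Those of Rdl, Syt1, brp and elav lay between -1.145 and -0.79 against repo-Gal4 and between -1.315 and -0.867 against UAS. None was called by edgeR. The 5 fat body genes summed to 3685 to 6421 CPM in glial overexpression, against 6307 to 10590 CPM in the 4 repo-Gal4 controls and 7435 to 8816 CPM in the 4 UAS controls. The part of the neuronal and fat body markers in the synthetase values was not tested. The cytosolic minus mitochondrial value was 1.62 ± 0.05 in glial overexpression, against 1.48 ± 0.12 in repo-Gal4 controls and 1.597 ± 0.215 in the UAS control (SD, n = 5 each). Its difference was 0.14 against repo-Gal4 and 0.02 against UAS, and 0.19 and 0.12 without the 2 libraries.

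A single fit of all 30 libraries tested whether the glial and the neuronal effect differed, each being overexpression minus the mean of its controls. None of the 35 genes was called by edgeR or DESeq2, where edgeR called 1.1% of 11137 genes, and 1 had an unadjusted p under 0.05 (8.47% of all genes). That gene was MetRS-m, with a difference of -0.29 on the log2 scale (edgeR adjusted p = 0.282). Without the 2 control libraries, 4 members were called, where 34.2% of 11211 genes were: TyrRS, LysRS and ThrRS with differences of 0.36, 0.31 and 0.20, and MetRS-m with -0.26 (edgeR adjusted p = 0.0107, 0.0142, 0.0291 and 0.0425).

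Genes that work beside the synthetases were taken from lists of known function. In neuronal overexpression, none of the 3 scaffold proteins of the multi-synthetase complex changed against both controls. AIMP1 rose against nSyb-Gal4 alone (log2 fold change 0.22, edgeR adjusted p = 0.0316). Slimp, the insect paralog of the mitochondrial serine enzyme and its partner in flies, had log2 fold changes of 0.01 and 0.08 with adjusted p of 0.982 and 0.485 in edgeR. GatA and GatB, of the amidotransferase that completes glutamine charging in mitochondria, rose by 0.28 (edgeR adjusted p = 0.0175) and fell by 0.15 (edgeR adjusted p = 0.0442) against nSyb-Gal4 and were not called against UAS. Of 8 mitochondrial translation factors, none was called against both controls, and 4 were lower against UAS, where 20.2% of all genes were.

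Of 7 cytosolic elongation factors, eEF1alpha1, which carries charged tRNA to the ribosome, fell against both controls of the neuronal experiment, where 5.43% of all genes did. It had 3967 to 4477 CPM in overexpression, against 4641 to 5458 CPM in nSyb-Gal4 controls and 4766 to 5720 CPM in UAS controls, with log2 fold changes of -0.28 (edgeR adjusted p = 0.00675) and -0.35 (edgeR adjusted p = 0.000579). Of 8 subunits of eIF2 and its exchange factor, eIF2beta rose (0.34, edgeR adjusted p = 0.00169, and 0.17, edgeR adjusted p = 0.048), where 4.74% of all genes rose against both. It had 74.6 to 84.9 CPM in overexpression, against 57.7 to 73.1 CPM in nSyb-Gal4 controls and 67.6 to 80.2 CPM in the UAS control. Of 10 genes of stress sensing, PEK, a kinase of eIF2alpha at the endoplasmic reticulum, fell (-0.20, edgeR adjusted p = 0.00265, and -0.15, edgeR adjusted p = 0.0102), beside the same 5.43% of all genes. Gcn2, the kinase that senses uncharged tRNA, had -0.06 against both controls (edgeR adjusted p = 0.382 and 0.261). Among the genes of elongation, eIF2 and stress sensing, eEF1delta, REPTOR, chrb and crc rose against UAS alone, where 18.3% of all genes rose against UAS. In the same lists eEF1gamma, eEF2, eIF2alpha and eIF2Bgamma fell against UAS alone, where 20.2% of all genes fell against UAS. Of 8 tRNA modification genes, none was called in the same direction against both controls. In glial overexpression, no gene of these lists was called against either control.

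Marker genes of cell types and tissues also moved in the neuronal experiment. Summed CPM of 5 fat body genes was 2893 to 5625 in neuronal overexpression, against 6025 to 9527 in nSyb-Gal4 controls and 5127 to 6648 in UAS controls. Of these, fit and FASN1 fell against both, where 5.43% of all genes did, and apolpp fell against nSyb-Gal4 alone. Lsp1beta and Lsp2 were not called, with log2 fold changes of -0.29 and -1.42 against nSyb-Gal4 and 0.976 and 0.125 against UAS. The 3 yolk protein genes, higher in females, summed to 17000 to 39870 CPM in neuronal overexpression, against 38090 to 63240 CPM in nSyb-Gal4 controls and 30510 to 60720 CPM in UAS controls, with Yp2 lower against both. The 5 muscle genes summed to 6819 to 9039 CPM in neuronal overexpression, against 9820 to 10890 CPM in nSyb-Gal4 controls and 8667 to 10480 CPM in UAS controls, with Mhc lower against both. Against nSyb-Gal4, 4 of them fell (8.34% of all genes), and against UAS 2 fell (20.2%). The 6 glial genes summed to 3420 to 3785 CPM in neuronal overexpression, against 3788 to 4131 CPM in nSyb-Gal4 controls and 3768 to 3993 CPM in UAS controls, with repo lower against both. The 5 neuronal genes summed to 3091 to 3614 CPM in neuronal overexpression, against 2709 to 3571 CPM in nSyb-Gal4 controls and 2408 to 3448 CPM in UAS controls, and none of them was called against both. Against UAS alone, 3 of the 5, elav, nSyb and Rdl, were higher, where 18.3% of all genes were higher against UAS. No defining marker was at 0 in these libraries. Their part in the synthetase values was not tested, and in whole heads fewer cells of a type and less RNA per cell cannot be told apart.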

How the data were processed

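RNA of 30 head libraries was prepared with the TruSeq v2 kit, per the labels' protocols. The authors deposited raw counts per gene for each library, and STAR, HTSeq and build BDGP6 are named per the submitters' processing notes; versions, annotation release and use of strand are not given in the sources used here. Counts outside genes (5.62 to 8.23% of a glial-experiment library and 9.02 to 10.5% of a neuronal-experiment one) stayed out. Each experiment was fitted separately (15 libraries, 3 groups) with edgeR 4.0.16 in R 4.3.3: filterByExpr, TMM scaling, trended dispersion, robust quasi-likelihood F test and Benjamini-Hochberg adjustment over all genes. Standard errors are those implied by F. CPM are counts in genes scaled by library size and TMM factor. Exon lengths and coordinates came from Ensembl annotation BDGP6.54, release 115. The fit across genes was tested on simulated data. Alternatives included DESeq2 1.42.0. Figures used matplotlib 3.10.9.

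Members and lists were chosen with earlier results of these data known. Named by rule, with library values or ranges, were members called against both controls, the largest changes in each direction, and the 2 highest and 2 lowest levels per kilobase in each compartment. AlaRS-m was named after its values were seen. GatC did not pass the filter, and Mtfmt, mEFG2 and Nsun6 were not matched. Same-numbered replicates did not deviate together in every pair (r -0.83 to 0.72 in the glial experiment and -0.51 to 0.28 in the neuronal one). Their median r was 0.313 in the glial experiment, against 0.075 for other pairs, and 0.013 against 0 in the neuronal one. An r over 0.1 was found in 8 of 15 same-numbered and 29 of 60 other glial pairs. In the neuronal experiment it was found in 2 of 15 and 10 of 60.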

Additional observations from a re-analysis of the deposited data

Results flagged for a closer look

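Within groups of 5 libraries, 96 sets of values of the named genes and of the cytosolic minus mitochondrial value were screened for a library far from the other 4 (Dixon's test at 0.71), and 26 had one. Chance gives about 1 in 20.

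Of the 26, 11 belong to UAS control 2 and 10 to repo-Gal4 control 3 of the glial experiment, and 5 to other libraries. UAS control 2 was high at TyrRS (274.8 CPM), ThrRS (181.3), PheRS-m (135.1), AspRS (99.71), SerRS (85.75), AlaRS (80.19), TrpRS (54.87), SerRS-m (42.25) and MetRS (37.69), and low at IleRS (22.96). Its cytosolic minus mitochondrial value was 1.978, against 1.47 to 1.538 in the other UAS libraries.

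Repo-Gal4 control 3 was high at ThrRS (130.9 CPM), TyrRS (122.6), PheRS-m (63.72), AspRS (63.13), SerRS (56.3), TrpRS-m (33.02), TrpRS (31.66), SerRS-m (28.48) and ValRS-m (13.41), and at the cytosolic minus mitochondrial value (1.686, against 1.392 to 1.469).

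Outside these libraries, ValRS-m stood at 12.92 CPM in glial overexpression 3, where the others had 7.74 to 8.71. In the neuronal experiment, LeuRS was low in neuronal overexpression 3 (34.43 CPM) and in nSyb-Gal4 control 1 (29.25 CPM). Values of nSyb-Gal4 control 5 were high at ValRS-m (9.539 CPM) and PheRS-m (51.84 CPM).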

How the results depend on the processing

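The 6 neuronal calls against both controls ranged from 4 to 6 when each library was left out, those against nSyb-Gal4 from 7 to 13, those against UAS from 9 to 12, and those of nSyb-Gal4 against UAS from 3 to 17. Glial counts, that of repo-Gal4 against UAS and the glial minus neuronal count were 0 in every such fit. With all 6 groups in one fit, neuronal counts were 0 (both controls), 0 (nSyb-Gal4), 1 (UAS) and 1 (nSyb-Gal4 against UAS). The same fit without the 2 glial controls of low length slope, chosen after seeing the data, gave 5, 11, 10 and 3. That fit gave 2 glial calls against both controls (AspRS higher, SerRS-m lower), 7 against repo-Gal4 and 4 against UAS. No share over all genes was taken for these glial counts, so they cannot be set against other genes. Without these libraries in the glial fit alone the counts were 1, 1 and 2, and with length slope as covariate 2 (SerRS-m and AlaRS-m lower), 4 and 8, with 3 for repo-Gal4 against UAS. The glial minus neuronal count was 4 and 3 under these settings. Beside the 4, 34.2% of all genes were called. With the covariate, a share over all genes was taken only for calls against both glial controls (4.9%). No low-count filter gave 7 calls against nSyb-Gal4 and 6 for nSyb-Gal4 against UAS, and a fit of only the latter groups gave 4. With a replicate block, 5 members remained called against both neuronal controls, 8 against nSyb-Gal4, 10 against UAS and 6 for nSyb-Gal4 against UAS, and 0 in glia. Causes were not tested. No member called in the main fit of an experiment (15 libraries, 3 groups) changed sign under these alternatives. AspRS, called against the glial UAS control only without the 2 libraries (log2 fold change 0.24), had -0.07 in the main fit. RLE factors and DESeq2 left all 11 calls against each neuronal control in place. The cytosolic minus mitochondrial difference, by leave-one-out, ranged from 0.192 to 0.232 (neuronal against nSyb-Gal4), 0.064 to 0.105 (against UAS), 0.12 to 0.194 (glial against repo-Gal4) and -0.01 to 0.117 (against UAS). GluRS-m, the member of lowest level, rested on as few as 100 counts in a library, so its values carry more counting error than those of the others.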
